A study of Homo sapiens with 40 samples.

Results

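The genes for the chains of collagen were examined in HepaRG cells, a human hepatic cell line, across every treatment of the series. The members were the genes whose name reads COL, a number, A and a number, and there were 44 of them among the 56568 gene names in the tables, carrying 347 named transcripts. Expression was FPKM (fragments corrected for transcript length and for library size) summed over the transcripts of a gene name. The 40 RNA-seq libraries fell into 8 groups of 5. All were made from differentiated HepaRG cells (HPR 116) kept in test medium with serum and DMSO from day 8 to day 14 of culture. They received the solvent control, PCB 126 at 100 pM, 10 nM or 1 µM, glyphosate at 10 µg/L, 1 mg/L or 0.1 g/L, or Roundup, a glyphosate-based herbicide, at 10 µg/L. The comparison asked whether the lower level of COL3A1 seen with PCB 126 was shared by the other collagens and by the herbicide groups. The 5 control libraries served every comparison with the control group, so these comparisons are not independent. The labels do not say that libraries of a group came from separate cultures, so p-values measure only the spread between these libraries, which may be technical.

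Collagens are built from 3 chains wound into a triple helix, and each gene encodes 1 chain. Fibrillar collagens (types I, III, V, XI) form the fibres that accumulate in liver fibrosis, type IV collagen forms the mesh of basement membranes, and FACIT collagens coat fibrils. In the liver, stellate cells and portal fibroblasts are the main source of fibrillar collagen. PCB 126, a polychlorinated biphenyl of the dioxin-like kind, activates the aryl hydrocarbon receptor, a transcription factor that binds DNA at sites with the core GCGTG.

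Summed FPKM per library ran from 255292 to 513059, and between 23130 and 32042 gene names were above 0. The depth in reads cannot be read from FPKM. The libraries that the study's alignment summary puts over 30% multiply aligned pairs had FPKM sums of 255292 to 332974. The others named there had 311488 to 513059. Those over the limit are control replicate 5, replicates 3 and 5 at 10 nM PCB 126 and replicates 1 and 5 at 1 µM. In the herbicide groups they are glyphosate 10 µg/L replicate 5, glyphosate 0.1 g/L replicate 2 and Roundup replicates 4 and 5. The fit was therefore repeated on the 29 libraries that are named and under that limit. HepaRG cultures hold hepatocyte-like and biliary-like cells. The 12 hepatocyte markers summed to a median of 21164 FPKM in control libraries (range 14625 to 21318) and 9842 at 1 µM PCB 126 (5722 to 14546), without overlap, and the 8 biliary markers to 467 (279 to 534) and 270 (165 to 285). Such sums weigh the abundant markers most. In the fit described below, 9 of the 12 hepatocyte markers had lower estimates at 1 µM, with 3 called lower and 1 called higher. The 12 markers of stellate cells, fibroblasts or myofibroblasts summed to 91.6 (42.4 to 94.0) and 168 (49.7 to 195), most of it LUM. Of these 12, 6 had a mean of at least 1 FPKM in controls and 5 at 1 µM. The means of PDGFRA, DES, THY1, TAGLN and VIM were at most 0.402 FPKM in both groups. Of the 6 that were tested, 4 had lower estimates at 1 µM, with a median log2 difference of -0.61 beside -0.26 over all genes. POSTN alone was called, and it was lower, where 1.87% of all genes were called. The sums of the 6 endothelial and 4 leukocyte markers had medians of at most 5.06 FPKM in both groups. In bulk libraries, fewer cells of a type and less RNA per cell cannot be told apart, and the part these marker levels have in the results below was not tested.

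The collagens of control cells were led by a few genes. COL18A1, which encodes the chain that holds endostatin, had a mean of 38.2 ± 10.3 FPKM (SD, n = 5), and COL12A1, a FACIT chain, 37.9 ± 13.2 (SD, n = 5). These were followed by COL4A5 at 20.4 ± 9.17, COL5A1 at 19.2 ± 6.97, COL4A2 at 16.1 ± 6.01 and COL3A1 at 12.5 ± 3.63 FPKM (SD, n = 5 each). The step from COL12A1 to COL4A5 was larger than the SD of either gene, and the other neighbours in this order differed by less than that. Together all collagens summed to 187 ± 59.1 FPKM (SD, n = 5), of which the first pair held 40.7% and the 6 most abundant genes 77.3%. The 9 network-forming chains held 31.5%, the 10 FACIT chains 21.2%, the 11 fibrillar chains 21.1% and the multiplexins COL15A1 and COL18A1 20.5%. The 8 beaded filament, anchoring fibril and other chains held 5.58% and the 4 transmembrane collagens 0.101%. Of the 44 genes, 16 had a control mean of at least 1 FPKM, 7 a mean between 0.1 and 1, and 21 a mean under 0.1, of which 5 (COL2A1, COL6A5, COL15A1, COL22A1 and COL25A1) were listed at 0 in every control library. The partners of some chains had far lower sums over named transcripts. COL1A1 had a control mean of 2.01 FPKM, while COL1A2, the other chain of type I collagen, was listed at 0 in 4 of the 5 control libraries and at 0.00516 FPKM in the other. COL6A1 had 7.56 FPKM and COL6A3 2.22, while COL6A2, the third chain of the classical type VI molecule, had 0.0213. COL5A1 had 19.2 FPKM against 0.479 for COL5A2, its partner in type V collagen.

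**Figure D1:**
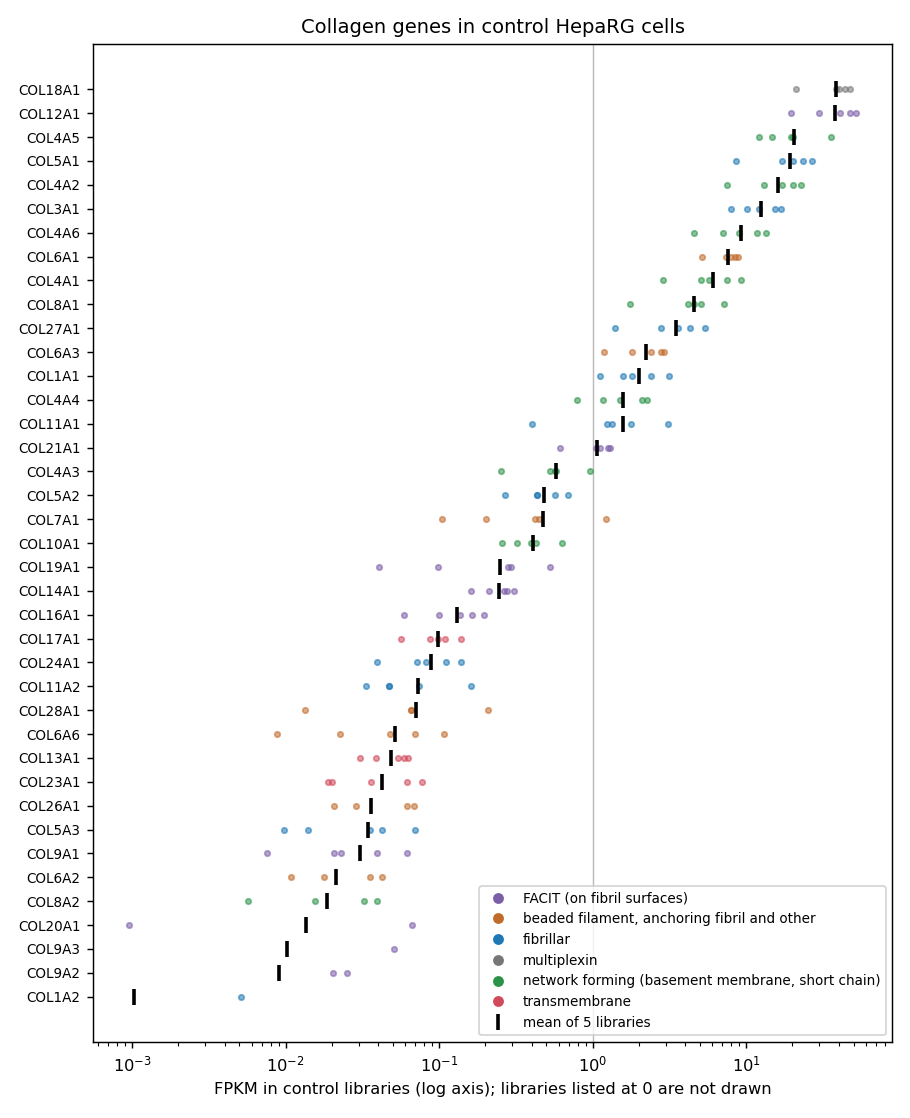
FPKM of each collagen gene in the 5 control libraries on a log axis, coloured by class, with a bar at the mean. The 5 genes listed at 0 in every control library are not drawn, and the grey line marks 1 FPKM, which 16 genes reached.

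COL3A1 was the collagen that fell most clearly with PCB 126. It encodes the single chain of type III collagen, a fibrillar collagen of soft tissues and of the liver's reticular fibres. In control libraries its FPKM was 10.1, 15.4, 12.1, 16.7 and 7.99 (replicates 1 to 5), and at 100 pM it was 7.37, 11.9, 15.1, 18.8 and 5.01. At 10 nM it was 2.06, 2.72, 3.33, 8.06 and 0.312, and at 1 µM 0.826, 0.406, 0.345, 0.919 and 0.382. Replicate 4 was the highest library in controls and at each dose. The 100 pM libraries lay around the control libraries, 4 of the 5 libraries at 10 nM lay below every control library with replicate 4 just inside the control range, and all 5 at 1 µM lay far below, as the libraries of 1.64% of the tested genes did at that dose. The mean was 0.576 ± 0.274 FPKM (SD, n = 5) at 1 µM, 21.7-fold lower than in controls, and the 2-sided exact permutation test of 5 libraries against 5 gave p = 0.00794, the smallest that this design allows. At 10 nM the mean was 3.30 ± 2.89 FPKM (SD, n = 5), 3.78-fold lower (exact permutation test, p = 0.0159).

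In the fit across all genes with limma on log2(FPKM + 1), a scale that understates changes of low genes, COL3A1 differed from control by -0.18 ± 0.38 (SE) at 100 pM (adjusted p = 1), by -1.87 ± 0.38 at 10 nM (adjusted p = 0.0232) and by -3.07 ± 0.38 at 1 µM (adjusted p = 2.29e-05). At 1 µM it ranked 8 by p among 9755 genes. The F-test across the 4 groups gave an adjusted p of 3.80e-05, and the trend was -1.09 per dose step (adjusted p = 6.60e-06). The call at 1 µM held under every alternative, while the call at 10 nM was lost in 4 of them, among these the fit without the libraries over the 30% limit (adjusted p = 0.206), and in 6 of 20 fits that leave out 1 library (control replicate 2, 3 or 4, or 10 nM replicate 1, 2 or 5, with adjusted p of 0.0514 to 0.105). Nearly all of this expression came from transcripts that begin at 1 start site on the + strand of chromosome 2 (GRCh38, gene span 188974320 to 189012746), whose FPKM went from 12.2 ± 3.55 in controls to 0.470 ± 0.252 at 1 µM (SD, n = 5 each).

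COL8A1, which encodes a short-chain collagen known from vessel walls and the eye's Descemet membrane, was the other member with a response to PCB 126, less clear than that of COL3A1. Its FPKM was 4.56, 5.04, 7.20, 4.20 and 1.74 in control libraries and 3.68, 4.94, 6.37, 3.63 and 2.29 at 100 pM. At 10 nM it was 1.83, 0.403, 1.43, 3.04 and 0.0672, and at 1 µM 1.18, 1.03, 2.51, 1.56 and 1.18. All but 1 control library, replicate 5, lay above every 10 nM and 1 µM library, and replicate 5 lay within both ranges. At 10 nM, replicate 4 was the highest and replicate 5 the lowest library for COL3A1 and COL8A1 alike. Replicate 5 was also the lowest for both genes in controls and at 100 pM. For COL3A1, replicate 4 was also the highest in controls, at 100 pM, at 1 µM and at each glyphosate dose. For COL8A1 it was not the highest in controls, at 100 pM or at 1 µM. COL8A1 passed the F-test (adjusted p = 0.0409), a call that was lost in 15 of the 20 fits that leave out 1 library and kept without control replicate 5, 100 pM replicate 5, 10 nM replicates 1 or 4 or 1 µM replicate 3. It also passed the trend test (-0.45 per dose step, adjusted p = 0.0215). It did not pass against control at 10 nM (-1.31 ± 0.33 SE, adjusted p = 0.161) or at 1 µM (-1.10 ± 0.33, adjusted p = 0.0948, 95% interval -1.79 to -0.41). In the alternative with a block for the run of library numbers, COL8A1 passed at both doses. Without control replicate 5 the values at 10 nM and 1 µM passed (adjusted p = 0.0416 and 0.0228), without 10 nM replicate 4 that at 10 nM passed (adjusted p = 0.0376), and without control replicate 3 the trend did not (adjusted p = 0.0576). Unlike COL3A1, it was no lower at 1 µM than at 10 nM, with means of 1.49 ± 0.601 and 1.35 ± 1.19 FPKM (SD, n = 5 each). Both of its groups of start sites had lower means, from 2.28 to 0.648 FPKM at the first and from 3.79 to 1.12 at the second, between control and 1 µM, with neither past the threshold (adjusted p = 0.403 and 0.155). The second includes an assembled transcript without a gene name, which the sum of COL8A1 does not hold. That transcript had 1.53 FPKM in controls and 0.272 at 1 µM.

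**Figure D2:**
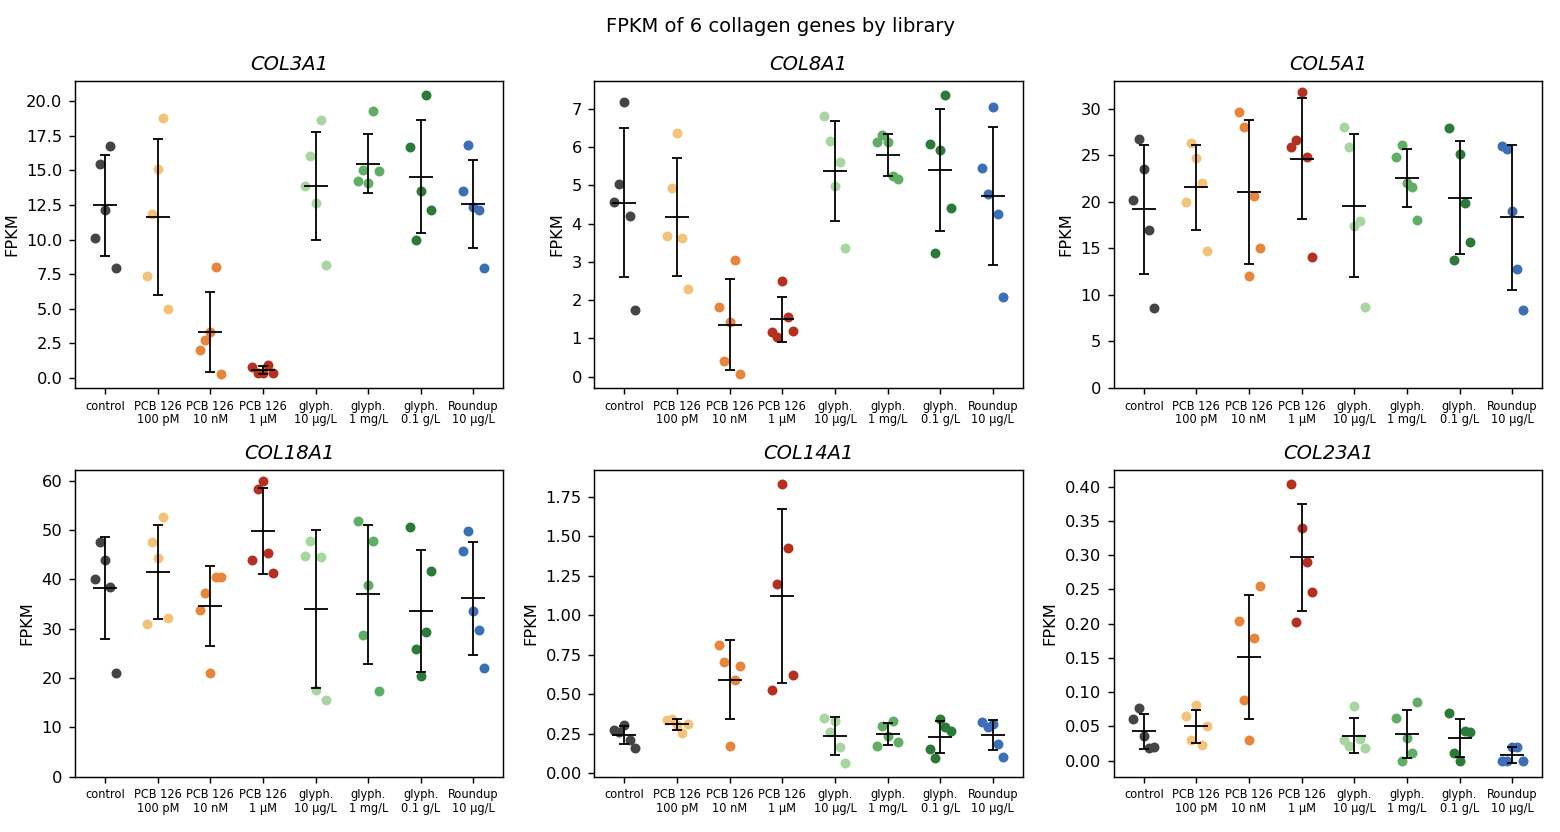
FPKM of COL3A1, COL8A1, COL5A1, COL18A1, COL14A1 and COL23A1 in each of the 40 libraries by group, with the mean and SD of the 5 libraries in black. COL3A1 falls from a control mean of 12.5 to 0.576 FPKM at 1 µM PCB 126 and stays at 12.6 to 15.5 in the herbicide groups, while COL14A1 and COL23A1 have their highest libraries at 1 µM.

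Of the 44 collagens, 12 passed the filter for a test (variance of FPKM above 1 over the 20 libraries) and 32 did not, the most abundant of these being COL6A3. At 100 pM none of the 12 was called by limma, against 0% of all genes, none had an unadjusted p under 0.05, against 1.19% of all genes, and an ordinary linear model called none. At 10 nM 1 was called (COL3A1), against 0.205% of all genes. At 1 µM 1 was called (COL3A1), against 1.87% of all genes, and this count was 2 with 75th-percentile scaling (COL18A1 higher), against 6.07% of all genes, and 5 with quantile normalization (COL18A1, COL1A1, COL4A6 and COL5A1 higher), against 11.1%. The call of COL1A1 carries no weight, since it passed the filter only through its higher 1 µM libraries. The F-test called 2 (COL3A1 and COL8A1) against 1.39% of all genes, and the trend called the same 2 against 3.78%. Genes as a whole shifted down at 1 µM, with a median log2 difference of -0.26 over the 9755 tested, which became -0.12 with 75th-percentile scaling and -0.01 with quantile normalization. The median of the 12 collagens was -0.10, and 0.05 and 0.10 under these scalings. Of the 12, 7 had a negative difference at 1 µM and 5 lay below the median of all genes, namely COL3A1, COL8A1, COL4A5, COL4A1 and COL4A2. Over all genes, 63 were called higher and 119 lower at 1 µM, and with quantile normalization 532 and 553. For the trend these counts were 90 and 279, and 599 and 643 with quantile normalization.

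Other than COL3A1 and COL8A1, the tested collagens had 1 µM differences between -0.56 and 0.64. COL1A1, the main chain of type I collagen, had an estimate of 0.64 with a 95% interval of -0.01 to 1.29 (adjusted p = 0.380). Its FPKM was 1.81, 3.16, 2.39, 1.57 and 1.12 in control libraries and 1.31, 6.50, 4.73, 5.54 and 2.03 at 1 µM, so 3 libraries lay above every control and replicates 1 and 5, which are among those over the 30% limit, did not. Without the libraries over that limit the difference was 1.17 (adjusted p = 0.0440). COL1A1 passed the filter only through its higher 1 µM libraries, with a variance of 2.26 over the PCB 126 table, 0.926 without the 1 µM libraries and 0.608 over the glyphosate table, where it was not tested, so its test carries no weight. With a filter on the mean instead (at least 0.5 FPKM over the libraries) its adjusted p at 1 µM was 0.371. COL18A1 was 0.40 (-0.12 to 0.93, adjusted p = 0.492), and 0.57 with 75th-percentile scaling (adjusted p = 0.0122). COL5A1, a chain that starts the assembly of fibrils of types I and III, was 0.39 (-0.24 to 1.01, adjusted p = 0.560), with a mean of 24.6 FPKM against 19.2 in controls. COL12A1 (-0.12), COL6A1 (-0.09) and COL27A1 (0.05) had estimates near 0, the first of which turned positive (0.04 and 0.07) under both scalings, as did COL6A1 (0.06 and 0.14).

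**Figure D3:**
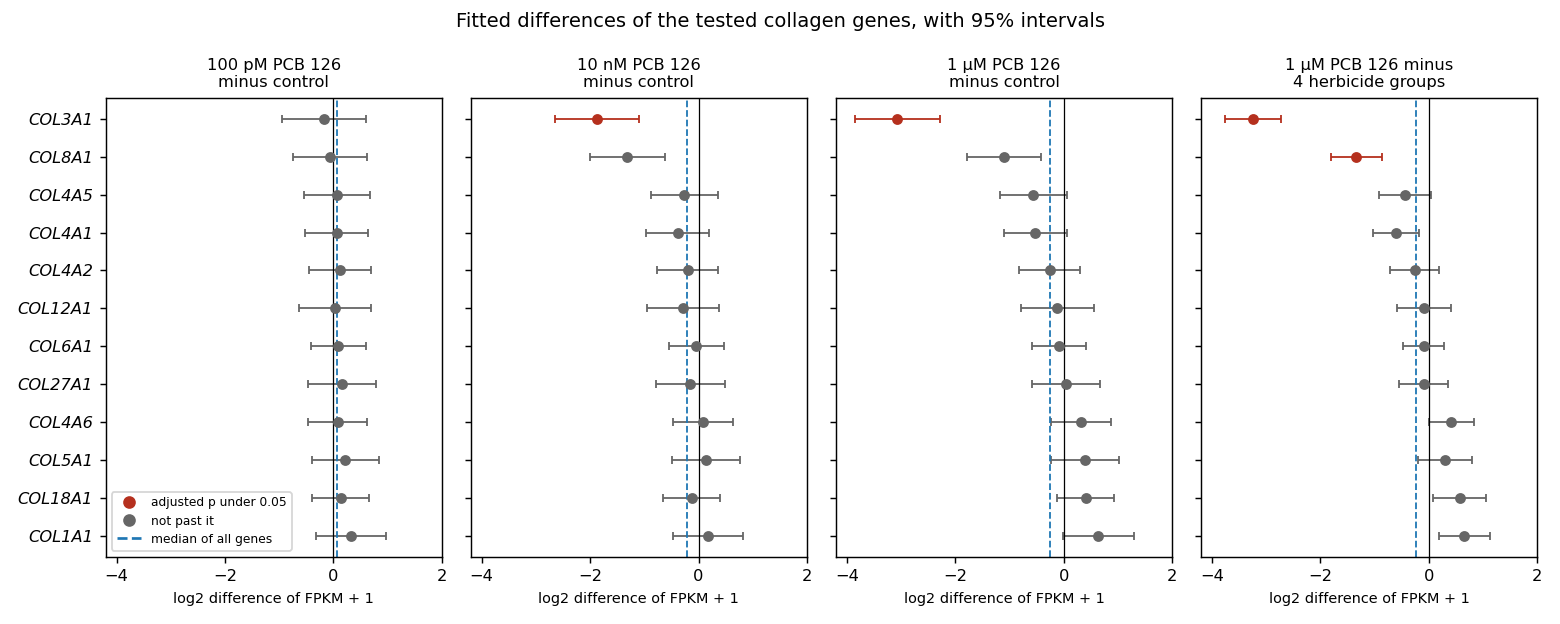
Fitted log2 difference of FPKM + 1 for the 12 tested collagens with 95% intervals, in 4 comparisons, with the median of all genes as a dashed line. COL3A1 is past an adjusted p of 0.05 (red) at 10 nM, at 1 µM and against the herbicide groups, and COL8A1 against the herbicide groups.

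Relative to the other collagens, COL3A1 fell as well. The summed FPKM of all collagens was 187 ± 59.1 in controls, 194 ± 37.6 at 100 pM, 157 ± 43.1 at 10 nM and 177 ± 41.1 at 1 µM (SD, n = 5 each), within the spread of the libraries. The share of COL3A1 in this sum was 6.93% ± 1.86 in controls, 5.76% ± 2.10 at 100 pM, 2.08% ± 1.67 at 10 nM and 0.346% ± 0.190 at 1 µM (SD, n = 5 each). The median ratio of COL3A1 to COL5A1, a chain of the same fibrils, was 0.578 (0.501 to 0.984) in controls, 0.0972 (0.0207 to 0.391) at 10 nM and 0.0271 (0.0108 to 0.0371) at 1 µM, without overlap with the control ratios at either dose. At 1 µM the ratio of COL3A1 to each of the other 11 tested collagens lay below all control ratios, as it did for 93.7% of all genes. At 100 pM this held for 0 of the 11, against 0.0718% of all genes. At 10 nM it held for 8 of the 11, against 67.9% of all genes, and the others were COL4A1, COL4A5 and COL8A1.

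Among the collagens too low to be tested, COL14A1 and COL23A1 had higher libraries at 1 µM than any control. COL14A1, a FACIT chain of fibril surfaces, had 0.276, 0.263, 0.307, 0.211 and 0.162 FPKM in controls and 0.524, 1.20, 1.83, 1.43 and 0.625 at 1 µM. At 10 nM it had 0.814, 0.703, 0.172, 0.593 and 0.681, of which replicate 3 alone lay within the control range. COL23A1, a transmembrane collagen, had 0.0427 ± 0.0258 FPKM in controls, 0.151 ± 0.0908 at 10 nM and 0.297 ± 0.0786 at 1 µM (SD, n = 5 each). Higher libraries without overlap at 1 µM were seen for 0.707% of the genes that passed the filter. COL14A1 and COL23A1 are not among those genes, and the share among genes below the filter was not computed. With every gene above 0 in the fit, both were called at 1 µM (COL14A1 0.73, adjusted p = 0.0305; COL23A1 0.31, adjusted p = 0.00633) together with COL3A1, 3 of 43 collagens tested against 0.398% of all genes. The number of reads behind such low levels is unknown. COL21A1, another FACIT chain, had 1.07 ± 0.270 FPKM in controls and 0.482 ± 0.101 at 1 µM (SD, n = 5 each; exact permutation test, p = 0.0159), with overlap, since control replicate 5 had 0.615 and 1 µM replicate 2 had 0.655. In the fit with the filter on the mean, COL21A1 did not pass against control (-0.47, adjusted p = 0.283), where 1.44% of all genes were called, and passed against the herbicide groups (-0.40, adjusted p = 0.0481), where 8.71% were. COL16A1, COL7A1, COL11A1, COL5A2 and COL6A3 overlapped with the controls at 1 µM as well. Of these, the fibrillar chain COL11A1 also passed against the herbicide groups in the fit with the filter on the mean (-0.70, adjusted p = 0.0316). It did not pass against control there (-0.33, adjusted p = 0.608).

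The 6 chains of type IV collagen are encoded in 3 head-to-head gene pairs, and they did not move alike in their estimates. COL4A1 and COL4A2, the chains of most basement membranes, had means of 6.06 and 16.1 FPKM in controls and 3.74 and 12.8 at 1 µM (log2 differences -0.52 and -0.26, adjusted p = 0.419 and 0.657). The median ratio of COL4A2 to COL4A1 was 2.64 (2.48 to 3.01) in controls, 3.05 (2.74 to 4.44) at 10 nM, 3.38 (2.70 to 4.19) at 1 µM and 2.41 to 2.53 in the herbicide groups. COL4A5 and COL4A6, the X-linked pair, had 20.4 and 9.18 FPKM in controls and 13.2 and 11.3 at 1 µM (-0.56 and 0.33, adjusted p = 0.419 and 0.579), and their median ratio was 2.65 (1.34 to 3.21) in controls and 0.979 (0.833 to 1.70) at 1 µM. Both ratios overlapped between the groups. Assembled transcripts without a gene name at the COL4A5 locus, which its sum does not hold, had 3.77 FPKM in controls and 7.81 at 1 µM. All transcripts from the COL4A5 start site together had 22.7 and 19.5, and the part of naming in the lower sum was not tested. COL4A4, of the pair restricted to specialised basement membranes, had 1.57 ± 0.615 FPKM in controls and 0.820 ± 0.204 at 1 µM (SD, n = 5 each; exact permutation test, p = 0.0397), with overlap. In the fit with the filter on the mean it did not pass against control (-0.47, adjusted p = 0.309) and passed against the herbicide groups (-0.62, adjusted p = 0.00474).

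**Figure D4:**
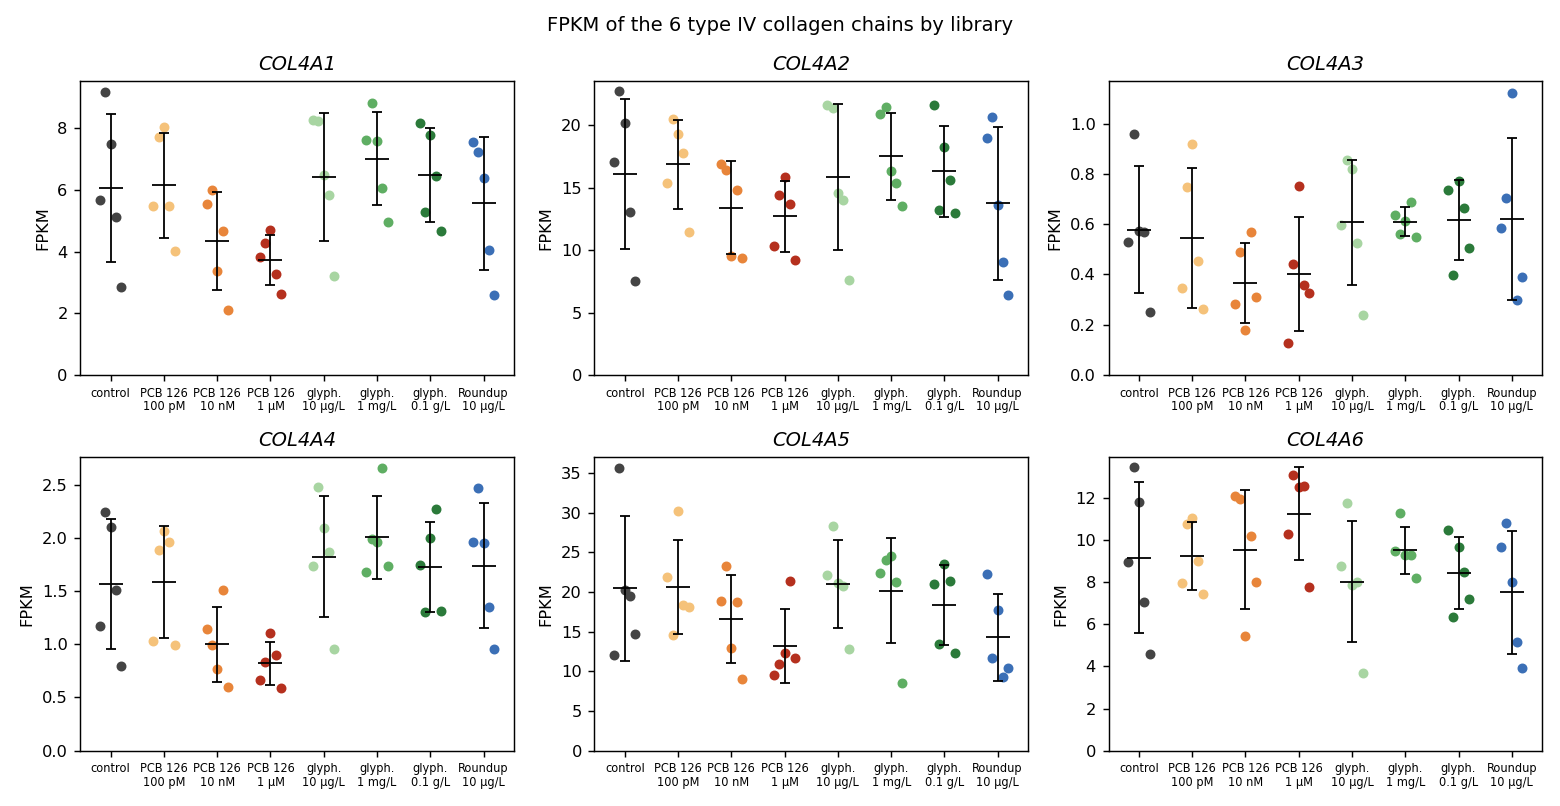
FPKM of the 6 type IV collagen chains in each of the 40 libraries by group, with the mean and SD of 5 libraries in black. At 1 µM PCB 126 the mean of COL4A5 is 13.2 against 20.4 FPKM in controls and that of COL4A6 is 11.3 against 9.18, with overlap in both genes.

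COL4A6 and COL18A1 each have a pair of separate annotated start sites, and the level of transcripts from each was compared. The starts of COL4A6 lie 1067 bases apart on the - strand of chromosome X. The upstream one lies 385 bases from the start of the most abundant COL4A5 transcript, on the other strand. The starts of COL18A1 lie 50363 bases apart on the + strand of chromosome 21. The bases just before each start are shown because transcripts from the 2 starts of a gene had estimates in opposite directions. They were read from RefSeq promoter entries on GRCh38.p14, the build of the files, 5′ to 3′ on the strand of the gene, and capitals mark the receptor's core GCGTG or its reverse complement CACGC.
COL4A6 upstream start, chrX:108439498-108439671, - strand: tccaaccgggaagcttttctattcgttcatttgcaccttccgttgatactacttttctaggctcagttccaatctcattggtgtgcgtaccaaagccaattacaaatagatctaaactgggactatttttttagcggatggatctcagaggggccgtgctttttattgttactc
COL4A6 downstream start, chrX:108438431-108438672, - strand: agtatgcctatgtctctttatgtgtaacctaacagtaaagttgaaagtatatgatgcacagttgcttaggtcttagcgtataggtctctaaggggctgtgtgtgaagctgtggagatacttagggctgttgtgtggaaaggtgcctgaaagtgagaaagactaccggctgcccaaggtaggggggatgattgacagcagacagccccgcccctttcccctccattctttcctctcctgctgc
COL18A1 upstream start, chr21:45404915-45405125, + strand: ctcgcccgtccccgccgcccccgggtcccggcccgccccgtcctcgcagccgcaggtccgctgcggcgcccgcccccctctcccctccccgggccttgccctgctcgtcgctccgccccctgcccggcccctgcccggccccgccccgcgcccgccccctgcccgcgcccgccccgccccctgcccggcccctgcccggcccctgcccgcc
COL18A1 downstream start, chr21:45455272-45455488, + strand: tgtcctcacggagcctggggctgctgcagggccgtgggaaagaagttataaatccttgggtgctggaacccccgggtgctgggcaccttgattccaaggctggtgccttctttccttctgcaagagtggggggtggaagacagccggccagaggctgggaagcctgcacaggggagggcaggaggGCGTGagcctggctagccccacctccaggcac
Of these windows, 1 held the core, at the downstream start of COL18A1. In promoters of 300 bases (250 before to 50 after the start), GCGTG on either strand was in 36.5% of all 35116 RefSeq entries and in 16 of the 44 entries that matched 32 of the collagens (36.4%). The TATA box motif TATAAA was in 11.5% and 18.2%, and CCAAT in 34.6% and 31.8%. COL3A1, COL8A1, COL1A1 and COL14A1 were among the collagens without an entry, so the motifs were not looked for there. Matches of letters are a description and not binding sites.

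Transcripts from the downstream start of COL4A6 had 3.55, 9.63, 4.71, 3.98 and 3.60 FPKM in controls and 10.1, 9.20, 11.6, 11.5 and 6.99 at 1 µM. Those from the upstream start had 5.28, 3.75, 6.88, 2.95 and 0.714 in controls and 0.251, 3.73, 0.641, 0.736 and 0.799 at 1 µM. At the downstream start every 1 µM library was above all controls but replicate 2, and at the upstream start 4 of 5 were below all controls but replicate 5. The log2 differences were 0.90 ± 0.29 (SE, adjusted p = 0.175) downstream and -1.14 ± 0.55 (adjusted p = 0.433) upstream, so neither passed, against 1.09% of all start sites called. Downstream, the value passed with quantile normalization (1.11, adjusted p = 0.0161), without the libraries over the 30% limit (1.21, adjusted p = 0.0479), and in the comparison of 1 µM with the herbicide groups (0.87, adjusted p = 0.0176, against 6.1% of start sites). The median ratio of downstream to upstream was 1.35 (0.673 to 5.05) in controls and 15.7 (2.47 to 40.1) at 1 µM, and single libraries of the herbicide groups reached 21.9, so the ratio varied widely without PCB 126 too. At COL18A1 the downstream start had 27.3 ± 11.9 FPKM in controls and 42.3 ± 9.07 at 1 µM (SD, n = 5 each; 0.76, adjusted p = 0.432), and the upstream start 16.5 ± 4.41 and 16.1 ± 15.1 (SD, n = 5 each; -0.36, adjusted p = 0.769). The upstream start of COL18A1 includes assembled transcripts without a gene name, which the sum of the gene does not hold. These had 7.63 FPKM in controls and 10.9 at 1 µM.

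**Figure D5:**
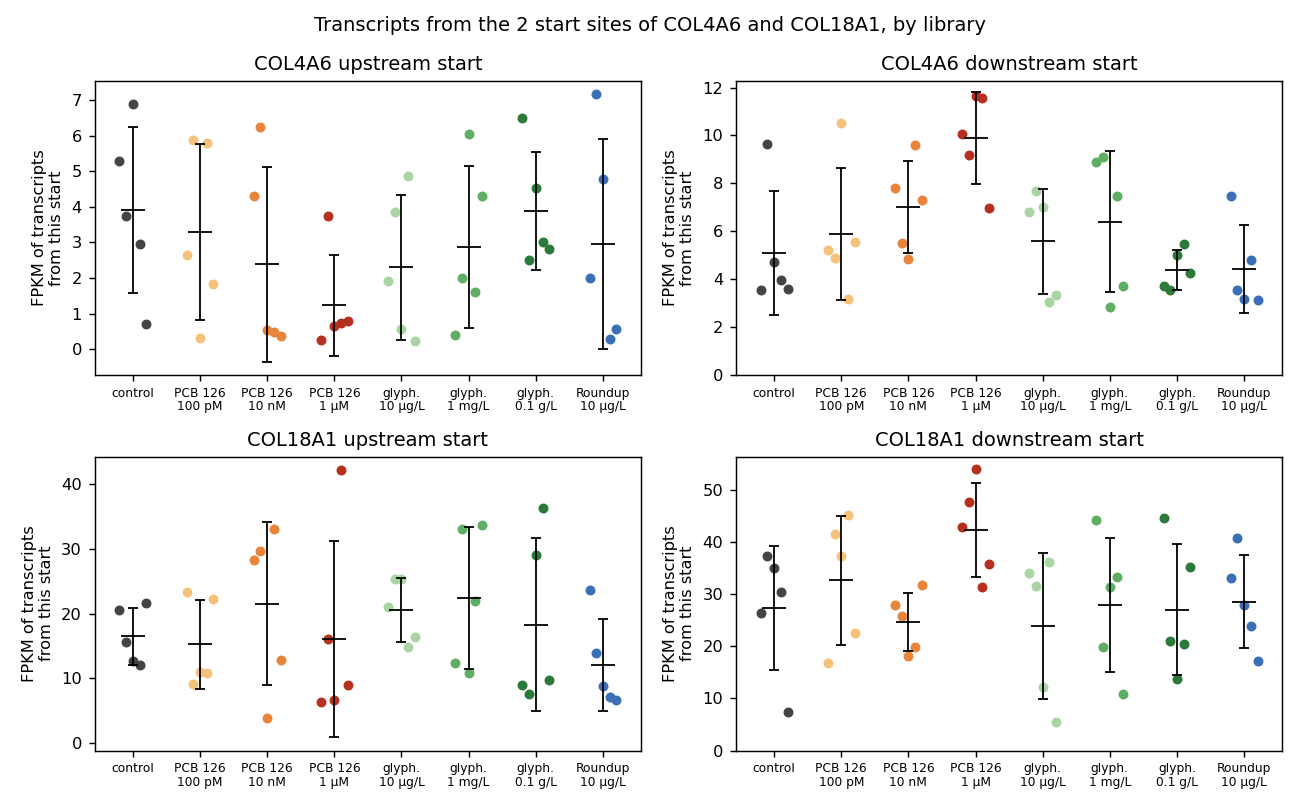
Summed FPKM of the transcripts from each start site of COL4A6 and COL18A1 in the 40 libraries by group, with the mean and SD of 5 libraries in black. The mean at the downstream start of COL4A6 is 5.09 FPKM in controls and 9.89 at 1 µM PCB 126, and at its upstream start 3.91 and 1.23.

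No collagen was called in any herbicide group, except in a fit with array weights that called COL6A1 with Roundup. The FPKM of COL3A1 was 13.8, 16.1, 12.7, 18.7 and 8.17 with glyphosate at 10 µg/L and 14.2, 15.0, 14.1, 19.3 and 14.9 at 1 mg/L. It was 16.7, 9.98, 13.5, 20.4 and 12.1 at 0.1 g/L, and 13.5, 16.8, 12.4, 12.1 and 7.98 with Roundup. Every group overlapped the control libraries. The log2 differences from control were 0.14 (95% interval -0.36 to 0.64), 0.33 (-0.17 to 0.83), 0.21 (-0.29 to 0.71) and 0.02 (-0.48 to 0.52), so each interval excludes a fall of the size seen at 1 µM PCB 126. For COL8A1, which ranged from 2.09 to 7.37 FPKM in these 20 libraries, they were 0.26, 0.38, 0.25 and 0.06. limma called 0 of the 11 collagens tested in the glyphosate table against control at each treatment, against 0% of all genes. None of the 11 had an unadjusted p under 0.05, as 0.997%, 1.31%, 0.881% and 1.73% of all genes had in that order, and an ordinary linear model called none of them. The F-test across the 5 groups of that table called 0 of the 11, against 0% of all genes, and none was at an unadjusted p under 0.05, as 1.36% of all genes were. Roundup and glyphosate, both at 10 µg/L, gave 0 called collagens (against 0% of all genes, with none of the 11 at an unadjusted p under 0.05, against 1.27%, and none called in an ordinary linear model), and the difference was -0.12 for COL3A1 (95% interval -0.62 to 0.38) and -0.20 for COL8A1 (-0.75 to 0.35).

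The effect of 1 µM PCB 126 was also compared with the 20 herbicide libraries, in 1 fit of all 40 libraries. COL3A1 was lower by 3.24 ± 0.25 (SE) on the log2 scale, adjusted p = 1.50e-12, and COL8A1 by 1.34 ± 0.23, adjusted p = 8.26e-05. These 2 of the 12 collagens were called, against 9.37% of all genes (167 higher and 745 lower, and 1205 and 1526 with quantile normalization). With quantile normalization 7 collagens were called, against 28.1% of all genes, COL18A1, COL1A1, COL4A6 and COL5A1 higher and COL3A1, COL4A1 and COL8A1 lower. COL1A1 passed the filter of the PCB 126 table only through its higher 1 µM libraries, so its call carries no weight here either. COL3A1 and COL8A1 stayed past the threshold in each of the 25 fits that leave out 1 library (highest adjusted p = 8.34e-11 and 8.30e-04).

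The genes that process, bind or induce collagen gave few calls against control, where 1.87% of all tested genes were called at 1 µM, and more against the herbicide groups, where 9.37% were. Of 32 genes for collagen synthesis and crosslinking, 19 were tested and none was called at 1 µM against control. The disulfide isomerase P4HB had 318 FPKM in controls and 332 at 1 µM, the peptidyl-prolyl isomerase PPIB 151 and 141, and the lysyl hydroxylase PLOD2 59.4 and 86.7. Against the herbicide groups, P4HA1 (prolyl hydroxylase, -0.94, adjusted p = 0.0256) and PCOLCE (an enhancer of procollagen C-proteinase, -0.93, adjusted p = 7.51e-04) were lower. Of 8 collagen receptors, 4 were tested and none was called against control, with ITGA11, the integrin chain that binds fibrillar collagen, at 19.3 ± 6.67 FPKM in controls and 42.4 ± 15.3 at 1 µM (SD, n = 5 each; adjusted p = 0.0593, and 7.12e-04 against the herbicide groups). Of 17 genes of the TGF-beta axis, the main inducer of collagen synthesis, 14 were tested and 1 was called. This was CTGF, a matricellular target of TGF-beta, which fell from 26.9 ± 7.37 to 10.2 ± 2.18 FPKM (SD, n = 5 each; -1.29, adjusted p = 0.0116), while TGFB1 itself, at 23.3 FPKM in controls, differed by -0.46 (adjusted p = 0.536). Of 12 genes of fibril-associated matrix, 8 were tested and 1 was called, POSTN, which encodes periostin and fell from 14.9 ± 3.82 to 4.15 ± 2.56 FPKM (SD, n = 5 each; -1.85, adjusted p = 0.00942). Against the herbicide groups, 6 of the 8 were called, against the 9.37% of all genes, with POSTN, FN1 and SPARC lower and LUM, DCN and THBS1 higher. LUM, a small proteoglycan of fibrils, had 50.2 ± 14.0 FPKM in controls and 115 ± 57.9 at 1 µM (SD, n = 5 each; adjusted p = 0.180). At 10 nM none of these lists had a called gene. The medians of the 4 lists at 1 µM were -0.08, -0.28, -0.30 and -0.41 in the order given, beside -0.26 over all genes.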

How the data were processed

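Read pairs from directional, rRNA-depleted libraries were mapped by the authors with HISAT2 (GRCh38). Transcript assembly and quantification used StringTie with Ensembl release 89, and the authors deposited FPKM of 234960 transcripts per library without further scaling or pooling. StringTie divides reads among transcripts and overlapping genes. Its version and strand setting are not given in the sources used here. Some deposited columns hold values just below 0 and were treated as a score. These values, 4 for PCB 126 and 6 for glyphosate, were set to 0. Depth is unknown from FPKM, so the 5 libraries per group set the precision. No libraries were identical apart from the shared controls, which hold the same values in both tables.

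FPKM were summed per gene name. Genes with a variance above 1 within a table were tested on log2(FPKM + 1) with limma 3.58.1 in R 4.3.3 (lmFit, eBayes, all groups of a table in 1 fit, Benjamini-Hochberg adjustment over all genes, threshold 0.05), on 9755 genes of the PCB 126 table, 9533 of the glyphosate table and 9732 for all 40 libraries. Single values were compared by 2-sided exact permutation tests. Transcripts of a gene whose first bases lie within 100 bases were summed as 1 start site, a choice made after seeing the data. The fits were tested on simulated data. Replicates were numbered by the run of library numbers in the labels, as identifiers. The median correlation of deviations between libraries of the same number was 0.0634 for PCB 126 and 0.0688 for glyphosate. Between libraries of different numbers it was -0.0182 and -0.0188. Correlations over 0.1 were seen in 7 of 30 and 19 of 50 pairs of the same number. Among pairs of different numbers they were seen in 4 of 120 and 7 of 200. The labels give no pairs, so the numbers were not treated as pairs in the fits reported, and a block for the run was an alternative. The members and lists of genes were chosen with earlier results of these data known. Members past the filter are named. Of each list, the genes called at 10 nM or 1 µM and up to 3 of the most abundant are named, and others were named after their values were seen. A gene of the lists that this rule would name is not reported here. Alternatives were a pseudocount of 0.1, a mean of at least 0.5 FPKM or any value above 0 as the filter, 75th-percentile scaling, quantile normalization, sums per locus, the most abundant transcript, an ordinary linear model, array weights, fits of 2 groups or of all 40 libraries, a block for the run, 29 libraries by alignment, and leaving out each library. Other steps used Python 3.11.15 with pandas 2.3.3, numpy 2.4.6, scipy 1.17.1 and matplotlib 3.10.9.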

Additional observations from a re-analysis of the deposited data

Results flagged for a closer look

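Of 96 groups of 5 libraries examined for the tested collagens, 4 held a library far from the others of its group, and chance flags about 1 in 20 groups. COL27A1 had 2.39 FPKM in glyphosate 10 µg/L replicate 5, against 4.17 to 4.90 in the others. COL3A1 had 19.3 FPKM in glyphosate 1 mg/L replicate 4, against 14.1 to 15.0. COL4A5 had 21.4 FPKM in 1 µM PCB 126 replicate 4, against 9.56 to 12.3, and 8.54 FPKM in glyphosate 1 mg/L replicate 5, against 21.2 to 24.5.

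The response to 1 µM PCB 126 differed from that to the herbicides in COL3A1 (difference of -3.24 on the log2 scale, adjusted p = 1.50e-12, all 5 libraries below all 20 herbicide libraries) and in COL8A1 (-1.34, adjusted p = 8.26e-05), both by limma.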

How the results depend on the processing

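FPKM carry no read counts, so what depth limits could not be given, and every collagen with a control mean under 1 FPKM, and 4 of the 16 above it, were outside the test as reported. The lower COL3A1 at 1 µM PCB 126, its trend and its difference from the herbicide groups kept their direction and side of the threshold under every alternative. Counts below are genes called, at 10 nM, at 1 µM, by the F-test, by the trend and for 1 µM against the herbicide groups, and the cause of each change was not tested unless the alternative used fewer genes or libraries. Over all genes they were 20, 182, 136, 369 and 912 as reported. They were 69, 592, 483, 841 and 3128 with 75th-percentile scaling, 184, 1085, 714, 1242 and 2731 with quantile normalization, and 239, 946, 915, 1227 and 1474 with array weights. With sums per assembled locus the first 4 were 48, 397, 322 and 714, and in 1 fit of all 40 libraries the first 3 were 43, 298 and 242. The F-test called 90 with every gene above 0, 88 with the most abundant transcript (trend 240) and 70 with the ordinary linear model (10 nM 12). Without the libraries over the 30% limit there were 48 at 10 nM and 336 at 1 µM. Against control in the herbicide groups, at 100 pM, in the F-test of the glyphosate table or between Roundup and glyphosate, 0 genes became 1, 2 or 3 in single alternatives. With array weights the Roundup counts were 3470 against control and 4448 against glyphosate, and the F-test of that table called 5527. That estimate of weights did not settle, with Roundup replicate 3 at a weight of 30.4. With the replicate block (run of library numbers) the counts were 37, 357, 270, 639 and 1430 over all genes, and for collagens 2 at 10 nM, 2 at 1 µM (COL3A1 and COL8A1 in both) and 4 against the herbicide groups, and no other collagen count changed.

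Collagens called at 10 nM were 2 (COL3A1 and COL8A1) with sums per locus, all 40 libraries, array weights or quantile normalization, and 0 with every gene above 0, the ordinary linear model, a pseudocount of 0.1 or without the libraries over the 30% limit (adjusted p of COL3A1 0.245, 0.152, 0.120 and 0.206). At 1 µM they were 2 with 75th-percentile scaling, the mean filter, all 40 libraries or without those libraries. They were 3 with sums per locus or every gene above 0, 4 with array weights and 5 with quantile normalization. With the mean filter the second was COL14A1, with means of 0.244, 0.310, 0.593 and 1.12 FPKM from control to 1 µM. It passed that filter only through its 1 µM libraries, so this call carries no weight. The F-test called 1 (COL3A1) with the mean filter, the most abundant transcript, the ordinary linear model, a pseudocount of 0.1 or without those libraries, and 4 with quantile normalization. The trend called 1 with the most abundant transcript, the ordinary linear model or a pseudocount of 0.1, 4 with array weights and 6 with quantile normalization. Against the herbicide groups they were 5 with every gene above 0, the mean filter, sums per locus, array weights or without those libraries, 6 with 75th-percentile scaling and 7 with quantile normalization. Array weights called 3 in the F-test of the glyphosate table, 1 with Roundup against control and 2 against glyphosate. Wherever COL1A1 is in these counts under the variance filter, its call carries no weight.

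These estimates changed sign. At 1 µM, COL12A1 was 0.042, 0.066, 0.080 and 0.23 and COL6A1 0.059, 0.14 and 0.050 (75th percentile, quantile, array weights for COL12A1 only, without the libraries over the limit), COL18A1 -0.50 with its most abundant transcript, and the upstream start of COL18A1 0.18 without those libraries. COL8A1 was 0.26 at 100 pM with its most abundant transcript, -0.018 (glyphosate 10 µg/L) and -0.094 (Roundup) with sums per locus, and 0.19 for Roundup against glyphosate with array weights. COL3A1 was -0.041 with Roundup under array weights and 0.029 against glyphosate with quantile normalization.

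With each library left out in turn, genes called ranged from 15 to 35 at 10 nM (35 and 32 without 10 nM replicates 3 and 4), 118 to 365 at 1 µM (without control replicates 4 and 5), 101 to 208 by the F-test (208 without control replicate 5), 223 to 1068 by the trend (without 1 µM replicate 5 and control replicate 5) and 414 to 1295 against the herbicide groups (414 and 559 without 1 µM replicates 1 and 5). In the glyphosate table they ranged from 0 to 1 or 0 to 2. Collagens called ranged from 0 to 2 at 10 nM, 1 to 2 at 1 µM and by the F-test, 1 to 3 by the trend and 2 to 3 against the herbicide groups. Log2 differences at 1 µM ranged from -0.33 to 0.15 for COL12A1, -0.18 to 0.20 for COL27A1 and -0.20 to 0.041 for COL6A1, and at 100 pM from -0.37 to 0.059 for COL3A1 and -0.30 to 0.10 for COL8A1. For Roundup they ranged from -0.12 to 0.16 and -0.28 to 0.019 for COL3A1 (against control and against glyphosate), and from -0.17 to 0.27 and -0.34 to 0.0073 for COL8A1.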
